A study of Mus musculus with 38 samples.

Results

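The oligodendrocyte precursor cells (OPCs) of mice in which an NG2 promoter drives Cre and both Bmal1 alleles are floxed (NG2:Cre+;Bmal1fl/fl, called KO here) were compared between ZT6, midway through the lights-on hours, and ZT18, midway through the dark hours. The comparison takes 7 KO ZT6 and 4 KO ZT18 libraries, 11 of the 38 libraries in the series, and covers all genes. The members were chosen by genotype and time alone, with no measured value. WT mice, which carry the same floxed alleles without Cre, gave 5 ZT6 and 4 ZT18 libraries that serve only to ask whether the KO difference depends on genotype. All groups came from forebrain of postnatal day 6 to 7 mice with no drug treatment, kept under 12 h of light and 12 h of dark. The cells had passed over lectin plates that hold back microglia and endothelial cells and had then bound an antibody to PDGFRA, and each library pools 2 mice. NG2 (Cspg4) is also active in pericytes, and the study's design text describes the line as a hypomorph whose Bmal1 lacks its DNA-binding domain, while the titles call it KO.

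BMAL1 and CLOCK bind E-box sequences together and drive the Per, Cry, Nr1d and Dbp genes, whose products feed back on them; this loop makes a cell's circadian clock. Several targets, Per1 above all, also respond without BMAL1 to signals such as cAMP, heat and glucocorticoid, as do immediate early genes, which need no new protein to be switched on. OPCs divide, migrate and mature into the oligodendrocytes that make myelin.

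The promoters of the pair of clock genes with the largest rises, and of an immediate early gene that rose in every ZT6 library, are shown because they carry the binding letters named in the results. Each is the 250 bases before the start in RefSeq (GRCm38.p6), 5′ to 3′ on the gene's strand, with the match in capitals: the E-box CACGTG in Ciart and Per1, and the cAMP response element TGACGTCA in Btg2.
Ciart, chr3:95882229-95882478, minus strand: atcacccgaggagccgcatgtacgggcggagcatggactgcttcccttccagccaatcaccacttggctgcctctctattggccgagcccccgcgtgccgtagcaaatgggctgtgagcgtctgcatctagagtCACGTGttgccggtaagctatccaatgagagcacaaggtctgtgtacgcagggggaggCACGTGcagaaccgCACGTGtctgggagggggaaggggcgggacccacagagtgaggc
Per1, chr11:69098699-69098948, plus strand: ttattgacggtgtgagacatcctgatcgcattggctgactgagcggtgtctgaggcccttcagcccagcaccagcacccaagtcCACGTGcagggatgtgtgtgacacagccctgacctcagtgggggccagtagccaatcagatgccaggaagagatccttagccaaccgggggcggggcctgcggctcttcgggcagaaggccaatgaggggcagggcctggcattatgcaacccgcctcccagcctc
Btg2, chr1:134079156-134079405, minus strand: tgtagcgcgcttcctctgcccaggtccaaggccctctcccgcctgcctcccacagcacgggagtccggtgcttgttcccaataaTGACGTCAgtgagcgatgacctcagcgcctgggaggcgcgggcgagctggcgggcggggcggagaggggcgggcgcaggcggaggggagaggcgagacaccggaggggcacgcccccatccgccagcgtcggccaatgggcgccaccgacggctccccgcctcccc
Ciart holds 3 E-boxes, which begin 116, 58 and 44 bases before the start, and Per1 holds 1, which begins 166 bases before the first of its RefSeq starts. Both motifs read the same on either strand and do not overlap each other. Over all 32851 RefSeq promoter windows of 250 bases, 6.02% hold the E-box and 1.55% the cAMP response element. Of the 17 core clock genes with a promoter in the table, 5 hold an E-box (Per1, Cry1, Tef, Ciart and Bhlhe41). Of the 20 immediate early genes with a promoter, 2 hold the cAMP response element (Dusp1 and Btg2). A match describes the letters only.

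The KO ZT6 libraries held 19.4 to 38.3 M counts and the KO ZT18 libraries 30.7 to 39.0 M, means of 26.2 and 33.9 M (exact permutation test, two-sided, p = 0.0576; the smallest p that 330 arrangements allow is 0.00303). The share of counts in rRNA genes, nearly all in a single gene model, was 0.0848% in KO ZT6 replicate 7 and 0.550% to 1.12% in the other 6 KO ZT6 libraries, against 0.0946% to 0.263% in KO ZT18. All 4 KO ZT18 libraries therefore fell in a class of 8 low-rRNA libraries, and only KO ZT6 replicate 7 shares it among the ZT6 libraries, so the time and this library property cannot be told apart except through that library and through 3 of the 6 WT ZT12 libraries. KO ZT6 replicates 6 and 7 also stood apart in their genes: Ciart, Per1, Nr1d1, Hspb1 and Hspa1a, given per library further on, lay near or below the ZT18 level in both. Replicate 6 has an rRNA share of 0.754%, so only replicate 7 of this pair is in the low-rRNA class. By X- and Y-linked genes, RNA of a single sex made up KO ZT6 replicates 1, 5 and 6 and KO ZT18 replicate 1. Results are given with all libraries, without KO ZT6 replicates 6 and 7, with the rRNA class as a term, and for replicate 7 alone against ZT18 where these differ. Leaving out replicates 6 and 7 together was chosen after these values were seen, so that fit gives no independent support for genes low in them.

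Arntl, the mouse symbol of Bmal1, was found at 17.9 to 23.3 CPM (counts scaled to library total) in KO ZT6, median 20.9, against 20.0, 18.1, 20.8 and 17.7 CPM in KO ZT18. The groups overlapped and the log2 fold change (ZT6 over ZT18 throughout) was 0.12 ± 0.12 (SE; adjusted p = 0.647). WT libraries averaged 20.6 ± 0.818 CPM at ZT6 and 25.6 ± 4.19 CPM at ZT18 (SD, n = 5 and 4). A count over the whole gene cannot show the loss of some exons, so it does not check the genotype labels. The OPC label matched the libraries: Pdgfra, the receptor of the positive plate, stood at 3298 to 5089 CPM in KO ZT6 and 2975 to 4165 CPM in KO ZT18, with a log2 fold change of 0.14 ± 0.11 (adjusted p = 0.548). Cspg4 overlapped between the groups likewise, with a log2 fold change of 0.03 ± 0.14 (adjusted p = 0.943). Of 20 OPC genes, 1 was called, Lhfpl3, described further on, against 5.03% of all genes called in either direction. Microglia markers were also abundant in spite of the lectin plates, with a summed level of 9400 to 23027 CPM in KO ZT6 and 13184 to 18355 CPM in KO ZT18, and 0 of 20 were called by edgeR.

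Of 22798 genes tested, 1146 (5.03%) differed between KO ZT6 and KO ZT18 at an adjusted p under 0.05, 505 of them higher at ZT6 (2.22%) and 641 lower (2.81%). The change passed 2-fold in 229 of the higher and 253 of the lower genes. Unless another tool is named, adjusted p-values come from the quasi-likelihood model of edgeR, corrected over all genes tested by Benjamini-Hochberg. An unadjusted p lay under 0.05 for 4456 genes. In 741 of the 1146 the 7 ZT6 and 4 ZT18 values did not overlap. Over all genes, such non-overlap was found upward for 1.85% and downward for 4.47%. The genes that rose were led by immediate early, stress and NF-kB genes, and those that fell by genes of neurons, blood vessels, red blood cells and myelin.

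The count moved with the libraries used. Without KO ZT6 replicates 6 and 7 it was 1991 (8.82% of 22575 genes; 950 higher and 1041 lower), and 1079 of the reported 1146 were called in the same direction (94.2%). With the rRNA class as a term it was 310 (1.36%; 108 higher, 202 lower), of which 239 were among the 1146. Replicate 7 alone against the 4 ZT18 libraries, all of the low-rRNA class, gave 0 calls by edgeR and 825 genes at an unadjusted p under 0.05; its arm holds 1 library. Without single-sex libraries 324 genes were called. With library size alone in place of TMM scaling, 404 were higher and 842 lower. Leaving out single libraries gave 420 calls without KO ZT18 replicate 1, 495 without replicate 3, 592 without replicate 4 and 724 without replicate 2. It gave 677 calls without KO ZT6 replicate 1, 736 without replicate 2 and 1565 without replicate 7.

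**Figure D1:**
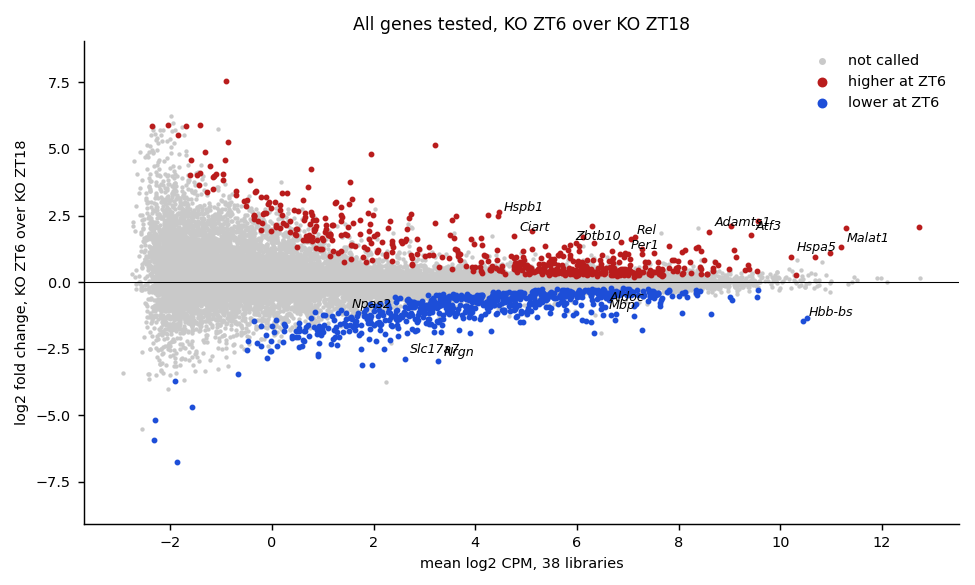
Log2 fold change, KO ZT6 over KO ZT18 (vertical), against mean log2 CPM over the 38 libraries (horizontal) for the 22798 genes tested, 1 point per gene. Red points are the 505 genes called higher at ZT6 and blue points the 641 called lower; Atf3, Adamts1, Ciart and Per1 lie above 0 and Nrgn, Npas2 and Mbp below it.

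The core clock genes that rose were 4 of 20, Ciart, Per1, Nr1d1 and Per2, and 2 fell, Npas2 and Rorb. Over all genes tested, 2.22% were called higher and 2.81% lower. The median log2 fold change of the 20 clock genes was 0.09, against 0.02 over all genes. Ciart (chr3:95878503-95882251, GRCm38), a repressor of CLOCK and BMAL1 whose promoter is printed above, stood at 71.8, 88.5, 81.9, 61.5, 40.0, 11.9 and 8.72 CPM in KO ZT6 replicates 1 to 7, against 13.9, 16.3, 12.6 and 19.8 CPM in KO ZT18. Replicates 1 to 5 lay above every ZT18 library and replicates 6 and 7 below every one. The log2 fold change was 1.73 ± 0.41 (adjusted p = 0.00925), 2.14 without replicates 6 and 7 and -0.84 for replicate 7 alone. With the rRNA class as a term it was 1.17 (adjusted p = 0.484).

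Per1, a period gene that represses CLOCK and BMAL1 and also an acute response gene, had the same pattern of libraries. It stood at 268, 289, 184, 243, 157, 71.7 and 77.2 CPM in KO ZT6 replicates 1 to 7, against 87.0, 86.7, 87.2 and 94.4 CPM in KO ZT18. Its log2 fold change was 1.05 ± 0.27 (adjusted p = 0.0167) and 1.36 without replicates 6 and 7. Again only replicates 1 to 5 exceeded ZT18. Nr1d1, the REV-ERBα repressor of Arntl, stood at 41.6, 58.7, 50.5, 43.6, 28.8, 12.7 and 16.8 CPM in KO ZT6, against 17.4, 16.5, 20.5 and 23.2 CPM in KO ZT18, with a log2 fold change of 0.89 ± 0.24 (adjusted p = 0.0235). Per2 stood at 25.1 to 47.9 CPM, median 35.9, in KO ZT6, against 26.4, 23.4, 26.5 and 25.8 CPM in KO ZT18, with a log2 fold change of 0.51 ± 0.16 (adjusted p = 0.0489). Per2 was the least firm of the rises, since 6 of the 7 ZT6 libraries exceeded ZT18 but its call was lost in 8 of the 11 fits that left out a library.

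All 6 clock calls were lost in a fit of only the groups of the contrast, and limma kept Per1, Npas2 and Rorb. None of the 4 rises was called with the rRNA class as a term, where the log2 fold changes were 1.17, 0.74, 0.63 and 0.31, and all 4 were negative for replicate 7 alone. The call of Per1 was lost without KO ZT18 replicate 1, 2 or 3 (adjusted p = 0.0673, 0.0503 and 0.0617), and that of Nr1d1 without KO ZT6 replicate 2 (0.0693) or KO ZT18 replicate 1, 2 or 3 (0.0985, 0.0839 and 0.0639). Per2 lost its call without KO ZT6 replicate 1, 2, 4 or 6 or any KO ZT18 library (adjusted p up to 0.137).

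Npas2, a CLOCK paralogue that pairs with BMAL1, was low in all libraries, at 0.481 to 3.00 CPM in KO ZT6, median 1.47, against 4.42, 3.69, 3.32 and 3.22 CPM in KO ZT18. All 7 ZT6 values lay below the ZT18 values, replicates 6 and 7 nearest to them, and the log2 fold change was -1.17 ± 0.33 (adjusted p = 0.0288). Rorb, an orphan receptor of the ROR family, stood at 7.29 to 14.4 CPM in KO ZT6, median 9.86, against 14.6, 15.2, 17.2 and 11.8 CPM in KO ZT18, with a log2 fold change of -0.57 ± 0.16 (adjusted p = 0.0291). It was the only clock gene called with the rRNA class as a term, at -0.86 (adjusted p = 0.0278). The call of Npas2 was lost without KO ZT6 replicate 2 or 4 or any KO ZT18 library (adjusted p up to 0.116), and that of Rorb without KO ZT6 replicate 2 or 3 or KO ZT18 replicate 1, 2 or 3 (up to 0.127).

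The other 14 clock genes were not called. Dbp, a direct BMAL1 target in many tissues, stood at 10.4 to 21.4 CPM in KO ZT6 and 17.6 to 20.2 CPM in KO ZT18, with a log2 fold change of -0.22 ± 0.15 (adjusted p = 0.450). Tef, Hlf, Per3, Cry2 and Rora had log2 fold changes between -0.12 and 0.06. Bhlhe40, a repressor that competes for E-boxes, lay below every ZT18 library in all 7 ZT6 libraries, at 15.0 to 34.2 CPM against 35.0 to 42.8 CPM, with a log2 fold change of -0.67 ± 0.23 that did not pass (adjusted p = 0.0815). Without replicates 6 and 7, 9 clock genes were called higher: Clock, Cry1, Nr1d2, Nfil3 and Bhlhe41 joined the 4, with log2 fold changes of 0.45, 0.45, 0.60, 1.06 and 0.68. That fit called 8.82% of all genes in either direction. Replicates 6 and 7 were set aside partly for their low clock genes, so these added calls are not independent support.

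**Figure D2:**
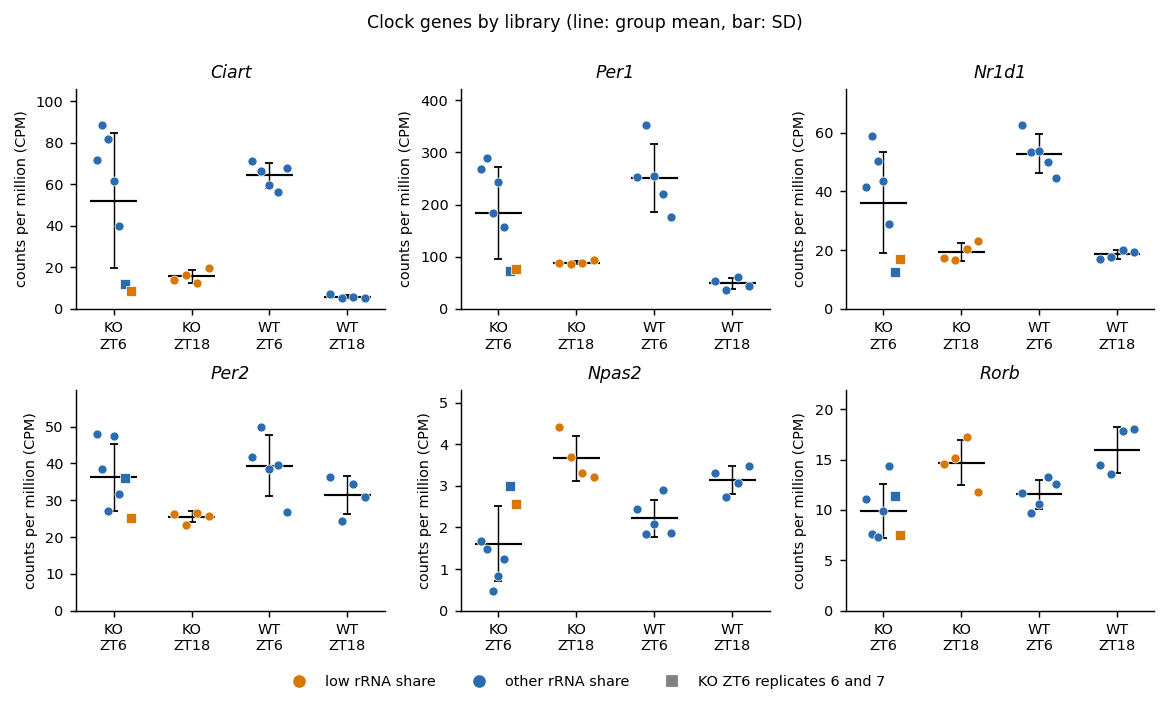
CPM of 6 core clock genes in KO ZT6, KO ZT18, WT ZT6 and WT ZT18 libraries, 1 point per library, with the group mean (line) and SD (bar); orange marks the low-rRNA libraries and squares mark KO ZT6 replicates 6 and 7. Those squares lie below all 4 KO ZT18 points for Ciart and Per1 and near them for Nr1d1, while the other 5 KO ZT6 points lie above.

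Among immediate early genes 9 of 25 were called higher and none lower, against 2.22% of all genes called higher, and the list's median log2 fold change was 0.71. Of the 25, 6 had a negative log2 fold change, the lowest at -0.99. With the rRNA class as a term 14 of 25 were called higher, against 0.474% of all genes, with a median of 1.31. For replicate 7 alone the median was 0.99. Atf3, a stress-induced repressor of the ATF family, stood at 1376, 2111, 1706, 1434, 940, 546 and 873 CPM in KO ZT6, against 259, 358, 359 and 538 CPM in KO ZT18. The groups did not overlap, and the log2 fold change was 1.76 ± 0.32 (adjusted p = 0.00104). Klf6, a zinc finger factor of the Krüppel-like family, stood at 507, 703, 536, 557, 446, 329 and 490 CPM in KO ZT6, against 161, 199, 193 and 257 CPM in KO ZT18. Its log2 fold change of 1.33 ± 0.22 (adjusted p = 0.000613) was 1.28 for replicate 7 alone, so this library was as high as the rest.

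Klf2, another Krüppel-like factor, stood at 206 to 570 CPM in KO ZT6, median 376, against 102 to 227 CPM in KO ZT18, with a log2 fold change of 1.35 ± 0.29 (adjusted p = 0.00494). Btg2, an antiproliferative gene whose promoter is printed above, stood at 350 to 868 CPM, median 522, against 197, 257, 221 and 320 CPM, with a log2 fold change of 1.17 ± 0.26 (adjusted p = 0.00527). The Klf2 groups overlapped and the Btg2 groups did not. Atf3, Klf6, Klf2 and Btg2 were all called with the rRNA class as a term and in every leave-one-out fit. Fos and Egr1, chosen after their values were seen as the classic members of the list, were highest in replicate 7: Fos stood at 933 to 2473 CPM in KO ZT6 and 710 to 1203 CPM in KO ZT18, with a log2 fold change of 0.81 ± 0.28 (adjusted p = 0.0848). Egr1 stood at 1742 to 3842 CPM and 1080 to 1605 CPM, with a log2 fold change of 1.09 ± 0.29 (adjusted p = 0.0242; 0.106, 0.0678 and 0.0816 without KO ZT18 replicate 1, 2 or 3). Nr4a1, chosen in the same way, did not rise, with a log2 fold change of -0.13 (adjusted p = 0.848). Immediate early genes can be induced while tissue is dissociated, and no value here separates that from their level in the animal. The part of dissociation was not tested.

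Heat shock genes were called higher in 6 of 16 cases, against 2.22% of all genes, with a median log2 fold change of 0.50. The model with the rRNA class called 2 of the 16, against 0.474% of all genes called higher. A fit of only the groups of the contrast also called 2, and the median for replicate 7 alone was -0.07. Hspa5, the main chaperone of the endoplasmic reticulum, stood at 1612, 2024, 2430, 2026, 1348, 1025 and 1248 CPM in KO ZT6, against 735, 861, 882 and 986 CPM in KO ZT18. All 7 values exceeded ZT18, and the log2 fold change of 0.95 ± 0.17 (adjusted p = 0.00104) was 1.10 with the rRNA class as a term (adjusted p = 0.00982). Bag3, a co-chaperone of HSP70, stood at 21.2 to 163 CPM, median 61.3, in KO ZT6, against 18.9, 16.6, 15.6 and 21.6 CPM in KO ZT18, with a log2 fold change of 1.93 ± 0.36 (adjusted p = 0.00136). Hsph1, an HSP110 nucleotide exchange factor, had a log2 fold change of 0.86 ± 0.18 (adjusted p = 0.00431), and its replicates 6 and 7, at 103 and 96.0 CPM, were close to the ZT18 level of 97.2 to 99.0 CPM.

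Hspb1, a small heat shock protein, varied widely between ZT6 libraries. It stood at 24.4, 67.3, 184, 68.5, 18.3, 3.62 and 5.81 CPM in KO ZT6, against 7.07 to 11.2 CPM in KO ZT18. Replicates 1 to 5 lay above ZT18 and replicates 6 and 7 below it, as for Ciart. The log2 fold change was 2.47 ± 0.62 (adjusted p = 0.0153), 1.70 without KO ZT6 replicate 3, and its call was lost without KO ZT18 replicate 1 or 3 (adjusted p = 0.0660 and 0.0687). Hspa1a, the inducible HSP70 and chosen after its values were seen, also had replicates 6 and 7 below every ZT18 library, while replicate 5 overlapped ZT18, at 283, 602, 1849, 602, 203, 7.51 and 14.1 CPM in KO ZT6 and 125, 210, 66.4 and 169 CPM in KO ZT18. Its log2 fold change of 1.83 ± 0.99 did not pass (adjusted p = 0.306).

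Genes of the integrated stress and unfolded protein responses were called higher in 4 of 18 cases, against 2.22% of all genes, with a median log2 fold change of 0.20. Besides Hspa5 these were Ddit3, the stress factor CHOP, at 1.25 ± 0.27 (adjusted p = 0.00514), Herpud1, a component of endoplasmic reticulum protein degradation, at 1.04 ± 0.23 (adjusted p = 0.00550), and Dnajb9, a chaperone of the same compartment, at 0.82 ± 0.17 (adjusted p = 0.00430). For these 3 genes replicates 6 and 7 were the lowest of the ZT6 libraries, and none was called with the rRNA class as a term. Of 12 NRF2 antioxidant genes 3 were called higher, against the same 2.22%, with a list median of -0.07. Hmox1, which degrades haem, stood at 69.9 to 283 CPM, median 173, in KO ZT6 and 65.9 to 92.5 CPM in KO ZT18, with a log2 fold change of 1.16 ± 0.25 (adjusted p = 0.00494). Of 14 p53 target genes 4 were called higher, with a median of 0.34, among them Plk2, a polo-like kinase, at 0.79 ± 0.15 (adjusted p = 0.00151) and Trp53inp1, a pro-autophagy protein, at 0.46 ± 0.10 (adjusted p = 0.00530). With the rRNA class as a term edgeR called 0 of the 12 NRF2 genes and 1 of the 14 p53 genes higher. That fit called 0.474% of all genes higher. The p53 gene was Btg2, which is also on the immediate early list. Hmox1, Plk2 and Trp53inp1 lost their calls with that term (adjusted p = 0.0651, 0.0638 and 0.121).

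Of 19 NF-kB feedback and inflammatory genes 18 had a positive log2 fold change, with a median of 0.53. Of the 19, 3 were called higher, against 2.22% of all genes. Without replicates 6 and 7, set aside after values were seen, 10 were called, against 8.82% of all genes in either direction. Rel, an NF-kB subunit, stood at 348, 305, 236, 293, 167, 86.2 and 102 CPM in KO ZT6, against 62.1, 65.6, 73.6 and 84.0 CPM in KO ZT18, with a log2 fold change of 1.62 ± 0.30 (adjusted p = 0.00123). The groups did not overlap; replicates 6 and 7 were the lowest ZT6 libraries. Nfkbiz, a nuclear NF-kB cofactor, stood at 293 to 491 CPM, median 403, in KO ZT6 and 151 to 210 CPM in KO ZT18, with a log2 fold change of 1.22 ± 0.25 (adjusted p = 0.00297). Tnfaip3, the A20 enzyme that ends NF-kB signalling, had a log2 fold change of 1.12 ± 0.26 (adjusted p = 0.00843; 0.0524 without KO ZT18 replicate 1). Microglia also express these genes strongly; the summed microglia markers, given above, overlapped between the groups, and their part in the result was not tested.

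Among the 10 largest called rises of protein-coding genes whose groups did not overlap, with a mean above 2 CPM, were Adamts1, Irf4, Zbtb10, Tiparp and Ccnl1. Adamts1, a secreted protease that cleaves proteoglycans, stood at 573, 1295, 885, 609, 518, 507 and 449 CPM in KO ZT6, against 126, 130, 176 and 309 CPM in KO ZT18, with a log2 fold change of 1.90 ± 0.34 (adjusted p = 0.00104). Zbtb10, a zinc finger repressor, stood at 116, 103, 96.2, 112, 58.3, 54.5 and 51.2 CPM, against 31.6, 32.5, 31.2 and 32.9 CPM, with a log2 fold change of 1.39 ± 0.19 (adjusted p = 0.000183). Its ZT18 values were nearly equal and every ZT6 library exceeded them. Tiparp, an ADP-ribosyltransferase of the aryl hydrocarbon receptor pathway, had a log2 fold change of 1.37 ± 0.20 (adjusted p = 0.000261), Irf4, a lymphoid and myeloid transcription factor, 1.67 ± 0.29 (adjusted p = 0.000832), and Ccnl1, a cyclin tied to splicing, 1.27 ± 0.22 (adjusted p = 0.000720). All 5 were called with the rRNA class as a term and in every leave-one-out fit. Iqcn had the largest fold change of the 10, 2.35 ± 0.65 (adjusted p = 0.0272), at only 1.95 to 6.79 CPM in KO ZT6 and 0.376 to 1.14 CPM in KO ZT18, and lost its call without KO ZT6 replicate 1 or KO ZT18 replicate 2, 3 or 4 (adjusted p up to 0.105).

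**Figure D3:**
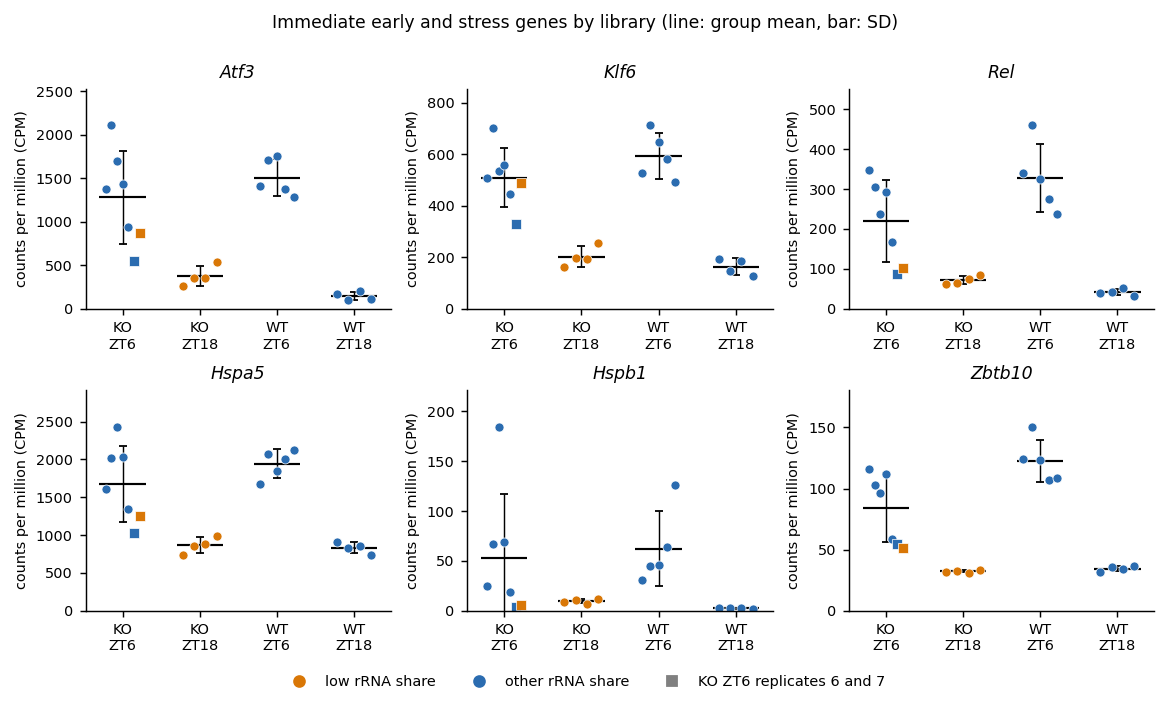
CPM of 6 immediate early, stress and NF-kB genes by library in KO ZT6, KO ZT18, WT ZT6 and WT ZT18, with the group mean (line) and SD (bar); orange marks low-rRNA libraries and squares KO ZT6 replicates 6 and 7. For Atf3, Klf6, Rel, Hspa5 and Zbtb10 all 7 KO ZT6 points lie above the 4 KO ZT18 points, and for Hspb1 the squares lie below them.

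Among signalling genes, Id2 rose while its relatives Id3 and Id4 fell; these proteins block basic helix-loop-helix factors and hold back oligodendrocyte maturation. Id2 stood at 158 to 421 CPM, median 300, in KO ZT6, against 101 to 160 CPM in KO ZT18, with a log2 fold change of 1.10 ± 0.21 (adjusted p = 0.00146). Id4 stood at 10.7 to 25.4 CPM, median 19.7, against 33.0, 37.6, 40.2 and 47.8 CPM, with a log2 fold change of -1.08 ± 0.21 (adjusted p = 0.00214). Astrocytes and neural progenitors also express Id3 and Id4, and the astrocyte markers described further on were lower at ZT6 too. Of 10 Wnt feedback genes 9 had negative values and 2 were called lower, against 2.81% of all genes. Among them was Dkk3, a secreted Dickkopf protein, at -0.92 ± 0.17 (adjusted p = 0.00127). The Wnt list had a median log2 fold change of -0.58, and of -0.07 for replicate 7 alone. With the rRNA class as a term its median was -0.28 and 1 gene was called lower, against 0.886% of all genes. Id3 stood at -0.79 ± 0.20 (adjusted p = 0.0147; 0.0501 and 0.0562 without KO ZT18 replicate 3 or 4). Id2 kept its call when the rRNA class was a term (adjusted p = 0.0317), and Id3 and Id4 lost theirs (0.398 and 0.0786).

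In the oligodendrocyte lineage, myelin genes were lower at ZT6: 5 of 14 fell, among them Mbp, Cldn11, Mag and Cnp, against 2.81% of all genes called lower, with a median log2 fold change of -0.64. Of the 14, 4 were called with the rRNA class as a term, against 0.886% of all genes called lower. Without single-sex libraries 1 of the 14 was called, against 142 of 23700 genes called lower. Mbp, which compacts the myelin sheath, stood at 56.5 to 116 CPM, median 74.2, in KO ZT6, against 164, 253, 190 and 156 CPM in KO ZT18. All ZT6 libraries lay below all ZT18 libraries, and the low-rRNA replicate 7 was the lowest. The log2 fold change was -1.22 ± 0.20 (adjusted p = 0.000507), and -1.71 with the rRNA class as a term (adjusted p = 0.000401). Mbp averaged 79.0, 82.0, 79.4 and 191 CPM at KO ZT0, ZT6, ZT12 and ZT18, with SDs of 24.2, 22.9, 23.6 and 43.9. In WT the means were 67.5 ± 12.6 CPM at ZT6 and 80.4 ± 2.89 CPM at ZT18 (SD, n = 5 and 4).

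Cldn11, a tight junction protein of myelin, stood at 7.20 to 15.7 CPM, median 9.47, in KO ZT6, against 19.6, 27.4, 24.9 and 18.6 CPM in KO ZT18, with a log2 fold change of -1.16 ± 0.23 (adjusted p = 0.00202; 0.0588 with the rRNA class as a term). Mag, a glycoprotein of the inner myelin layer, had -1.39 ± 0.34 (adjusted p = 0.0112; 0.0507 without KO ZT18 replicate 2), and Cnp, an enzyme of non-compact myelin, -0.37 ± 0.10 (adjusted p = 0.0218), lost without KO ZT18 replicate 1, 2 or 3 (0.0752, 0.0565 and 0.0810). The difference between KO and WT in this change did not pass for any of the 4, with log2 differences of -0.97, -1.18, -1.49 and -0.33 and unadjusted p of 0.00240, 0.00141, 0.00570 and 0.0305 from edgeR for Mbp, Cldn11, Mag and Cnp (adjusted p from 0.289 to 0.714). Lhfpl3, a marker of OPCs, moved the other way, at 505 to 865 CPM in KO ZT6, median 676, against 517, 453, 522 and 446 CPM in KO ZT18. Its log2 fold change was 0.51 ± 0.12 (adjusted p = 0.00807, and 0.193 with the rRNA class as a term). It was the only 1 of 20 OPC genes called, against 5.03% of all genes called in either direction. The OPC list had a median of 0.04. Of 16 oligodendrocyte commitment genes, 1 was called higher and 1 lower, against 2.22% and 2.81% of all genes, with a median of -0.05.

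Of 24 sterol synthesis genes 22 had negative log2 fold changes, with a median of -0.28, but only Pmvk, which phosphorylates phosphomevalonate, was called, at -0.59 ± 0.14 (adjusted p = 0.0104; 0.0502 without KO ZT18 replicate 3). All 25 nuclear genes of oxidative phosphorylation had negative values, with a median of -0.16, and 2 were called, against 2.81% of all genes called lower. With the rRNA class as a term their median was -0.13 and edgeR called 0 of the 25. Cytosolic ribosomal proteins (0 of 28), the proteasome (0 of 20), replication (0 of 20), mitosis (0 of 20) and mitochondrial mRNAs (0 of 12) had no called gene by edgeR. Rsad2, an antiviral interferon gene, fell and was low in both groups. It stood at 2.87 to 5.05 CPM in KO ZT6 against 7.25, 7.23, 7.95 and 12.9 CPM in KO ZT18. Its log2 fold change was -1.11 ± 0.20 (adjusted p = 0.00127). It was the only 1 of 12 interferon genes called, against 2.81% of all genes called lower. Malat1, a nuclear noncoding RNA, stood at 3655, 2823, 1154, 3576, 2398, 1646 and 1036 CPM in KO ZT6 and 713, 884, 1295 and 864 CPM in KO ZT18. Its log2 fold change of 1.31 ± 0.32 (adjusted p = 0.0124; 0.0752 without KO ZT18 replicate 1) was 0.20 with the rRNA class as a term and 0.14 for replicate 7 alone.

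Many markers of other cells fell at ZT6. Over all genes 2.81% were called lower, 0.886% with the rRNA class as a term and 142 of 23700 without single-sex libraries. Astrocyte markers were called lower in 13 of 18 cases (median log2 fold change -0.91), neuron markers in 12 of 22 (-0.99), endothelial markers in 9 of 14 (-1.53), red blood cell markers in 7 of 8 tested (-1.54), choroid plexus and ependymal markers in 3 of 12 (-1.28) and mural and fibroblast markers in 2 of 13 (-0.83). When the rRNA class was a term, the counts were 7 for astrocyte, 6 for neuron, 3 for endothelial, 6 for red blood cell, 0 for choroid plexus and 4 for mural markers, and the mural median was -0.02 (0.07 for replicate 7 alone). Without single-sex libraries they were 10 for astrocyte, 2 for neuron, 1 for endothelial, 5 for red blood cell, 1 for choroid plexus and 0 for mural markers. In bulk RNA fewer cells of a type and less RNA per cell cannot be told apart. Summed neuron markers stood at 1130 to 1822 CPM in KO ZT6 and 1778 to 2012 CPM in KO ZT18, and summed astrocyte markers at 1188 to 2059 CPM and 2713 to 3324 CPM. Endothelial sums were 43.5 to 86.7 CPM in KO ZT6 and 118 to 164 CPM in KO ZT18, and red blood cell sums 1101 to 2772 CPM and 4652 to 7813 CPM. The astrocyte, endothelial and red blood cell sums did not overlap. Replicates 6 and 7 lay within the range of the other ZT6 libraries for the neuron, endothelial and red blood cell sums, and replicate 6 had the highest ZT6 astrocyte sum.

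The 10 largest falls named by rule included several neuronal genes. Nrgn, a calmodulin-binding protein of dendrites, stood at 1.41, 3.68, 5.61, 4.38, 2.76, 2.51 and 2.75 CPM in KO ZT6, against 30.0, 17.8, 33.8 and 21.2 CPM in KO ZT18, with a log2 fold change of -2.97 ± 0.46 (adjusted p = 0.000452). Slc17a7, the vesicular glutamate transporter of cortical neurons, had -2.87 ± 0.57 (adjusted p = 0.00259) and Ppp1r1b, the DARPP-32 protein of striatal neurons, -2.50 ± 0.48 (adjusted p = 0.00175). Avp, the vasopressin gene, which hypothalamic neurons express, stood at 0 to 2.62 CPM in KO ZT6 and 7.17 to 11.2 CPM in KO ZT18, with a log2 fold change of -3.12 ± 0.63 (adjusted p = 0.00294; 0.166 with the rRNA class as a term). Nrgn, Slc17a7 and Ppp1r1b were called with that term, and no call of these 4 genes was lost when a library was left out.

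Of the other cell types, Aldoc, an aldolase enriched in astrocytes, stood at 54.6 to 81.9 CPM, median 80.0, in KO ZT6, against 130, 123, 166 and 140 CPM in KO ZT18, with a log2 fold change of -0.92 ± 0.15 (adjusted p = 0.000458). Cldn5, the tight junction protein of brain endothelium, stood at 0.513 to 10.4 CPM, median 6.59, against 30.3, 18.6, 25.0 and 19.1 CPM, with -1.88 ± 0.42 (adjusted p = 0.00619). Hbb-bt, an adult β-globin, stood at 42.5 to 103 CPM, median 99.5, against 262, 232, 359 and 379 CPM, with -1.79 ± 0.28 (adjusted p = 0.000452); globin genes are near-identical copies whose reads the counting may have split. None of the 3 overlapped between the groups, and all were called with the rRNA class as a term. Many of these markers fell at ZT6 in KO, as Id3, Id4, Dkk3 and the called myelin genes did, while Id2 rose. The part of other cell types in those results was not tested.

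**Figure D4:**
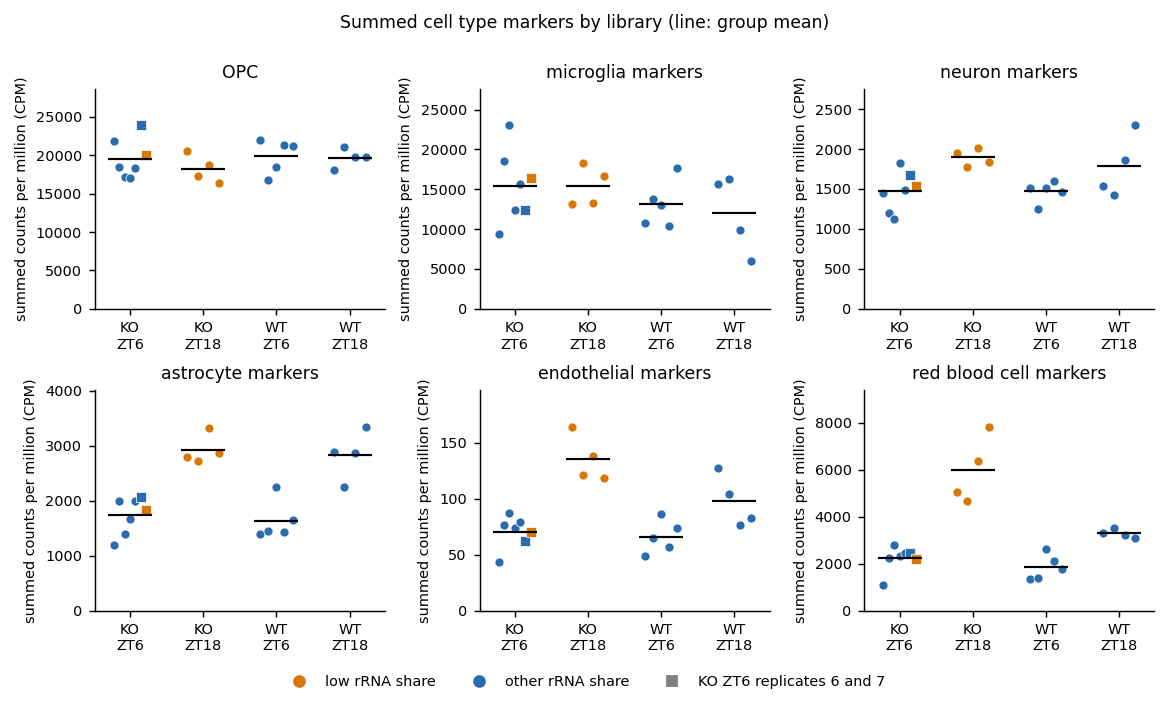
Summed CPM of marker genes of OPCs, microglia, neurons, astrocytes, endothelial cells and red blood cells by library in KO ZT6, KO ZT18, WT ZT6 and WT ZT18, with the group mean (line); orange marks low-rRNA libraries and squares KO ZT6 replicates 6 and 7. Astrocyte, endothelial and red blood cell sums of the 7 KO ZT6 libraries lie below all 4 KO ZT18 libraries, while OPC and microglia sums overlap.

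The same contrast in WT libraries, none of them of the low-rRNA class, called 1049 genes (4.6%; 716 higher at ZT6, 3.14%, and 333 lower, 1.46%). A total of 372 genes were called in both genotypes in the same direction, 32.5% of the KO genes and 35.5% of the WT genes. Ciart averaged 64.4 ± 6.08 CPM at WT ZT6 and 5.94 ± 0.750 CPM at WT ZT18 (SD, n = 5 and 4), a log2 fold change of 3.44 ± 0.47 (adjusted p = 4.56e-06) against 1.73 in KO. Astrocyte markers were called lower in 14 of 18 cases in WT, and NF-kB genes were called higher in 18 of 19, with a median log2 fold change of 2.28, against 3 of 19 and 0.53 in KO.

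The difference between genotypes, KO change minus WT change, passed for 0 of 22798 genes by edgeR, with 1486 at an unadjusted p under 0.05 and a smallest adjusted p of 0.0595; DESeq2 called 38 and limma 0. The 5 smallest p-values belonged to Gpr132, Dusp5, Rrad, Ccl4 and Ccrl2, a lipid receptor, an ERK phosphatase, a small GTPase, a chemokine and a chemerin-binding receptor. Ccl4 averaged 367 ± 156 CPM in KO ZT6 and 231 ± 30.5 CPM in KO ZT18, and 389 ± 79.1 CPM in WT ZT6 and 51.1 ± 14.1 CPM in WT ZT18 (SD), a log2 difference of -2.26 ± 0.46 (adjusted p = 0.0814). Dusp5 averaged 41.2 ± 17.7 and 21.9 ± 2.56 CPM in KO and 48.5 ± 10.4 and 4.46 ± 1.51 CPM in WT, in the same order, a log2 difference of -2.53 ± 0.48 (adjusted p = 0.0732). For both, the ZT6 means of the genotypes were close and the KO ZT18 mean lay above the WT ZT18 mean. KO and WT ZT18 libraries also differ in rRNA class, so genotype and that class cannot be told apart at ZT18. For Ciart the log2 difference was -1.70 ± 0.57 (unadjusted p = 0.00483, adjusted p = 0.457) and for Per1 -1.31 ± 0.38 (0.00138 and 0.289).

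**Figure D5:**
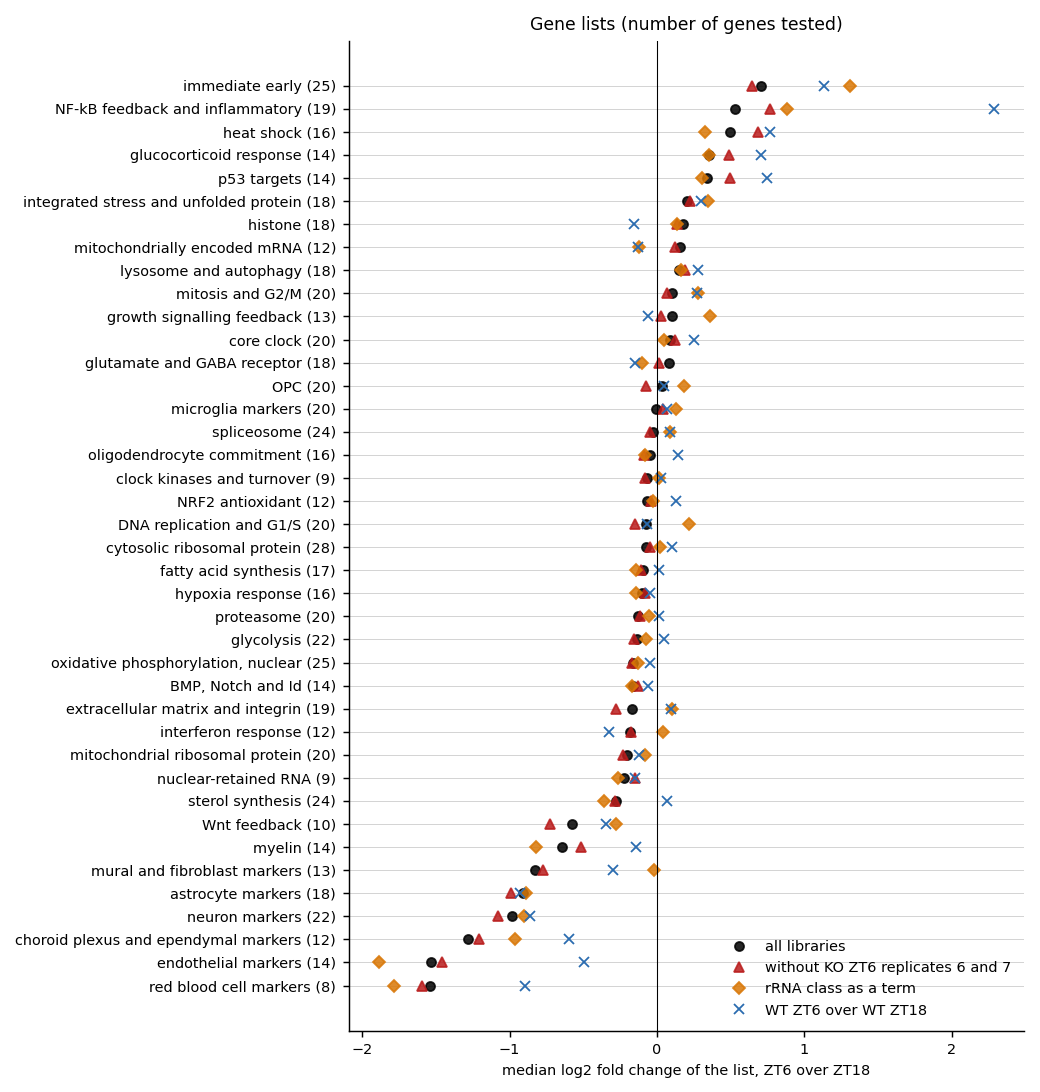
Median log2 fold change, ZT6 over ZT18, of 40 gene lists (rows, with the number of genes tested) in KO with all libraries (black circles), without KO ZT6 replicates 6 and 7 (red triangles) and with the rRNA class as a term (orange diamonds), and in WT (blue crosses). In KO with all libraries the immediate early and NF-kB lists lie at 0.71 and 0.53, and the endothelial and red blood cell lists at -1.53 and -1.54.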

How the data were processed

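Raw counts for 54532 genes in 38 libraries were deposited by the authors. Per the submitters' processing notes, the build was GRCm38 (mm10) and the tools were featureCounts 1.5.0-p3, HISAT2 2.0.5 and fastp. The sources used here give neither the annotation release nor the strand setting, so overlapping genes may share reads. Groups came from sample titles. Genes passing filterByExpr by group were kept (22798, 99.9% of counts). edgeR 4.0.16 under R 4.3.3 fitted 1 quasi-likelihood model of 8 groups over all libraries with TMM scaling, and calls were made at a false discovery rate of 0.05. CPM use TMM-scaled library sizes; group values are given with SD and fold changes with SE. DESeq2 1.42.0 and limma 3.58.1 (voom) served as alternatives. The rRNA class splits libraries at the largest gap in the share of rRNA-biotype counts (0.263% and 0.409%). Nothing in the labels says whether replicates come from separate litters, so p-values measure only the spread between these libraries. No pair of libraries matched within sampling noise (smallest chi-square per degree of freedom 15.6 over 27 pairs). The model was tested on simulated counts with known changes in KO ZT6. It recovered 87% of 100 2-fold changes and 49% of 100 1.5-fold changes, with 7 false calls. The simulated counts held no rRNA class difference, so they do not test that limit.

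The rule for named genes took all core clock genes, then the 10 largest non-overlapping called changes of protein-coding genes per direction (mean log2 CPM above 1), the 5 largest also called with the class term, the 5 smallest genotype-by-time p-values and up to 4 members of each of 43 lists, by smallest p. Fos, Egr1, Nr4a1, Hspa1a, Pdgfra and Cspg4 were chosen after their values were seen. The members and lists were chosen with earlier results of these data known. Some genes that the rule names are not reported here. Promoters are from RefSeq. Alternatives are given at the end; leaving out KO ZT6 replicates 6 and 7 together was chosen after seeing the data.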

Additional observations from a re-analysis of the deposited data

Results flagged for a closer look

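Among 260 groups of values examined, 13 had a library far from the rest of its group by Dixon's criterion. Chance flags about 1 in 20 groups, so about this many flags would come by chance alone. KO ZT6 replicate 3 was the highest of its group for Hspb1 (184 CPM, the others 3.62 to 68.5), Hspa1a (1849 CPM, the others 7.51 to 602), Cldn11 (15.7 CPM), Cnp (216 CPM) and Clic6, a choroid plexus gene (2.52 CPM). KO ZT6 replicate 4 was the highest for the neuronal genes Syt1 (38.2 CPM, the others 8.03 to 18.6) and Eno2 (23.0 CPM). KO ZT6 replicate 1 was the lowest for the red blood cell genes Hbb-bt (42.5 CPM, the others 84.6 to 103) and Alas2 (21.1 CPM, the others 49.3 to 62.4). In KO ZT18, replicate 4 was the highest for Per1 (94.4 CPM, the others 86.7 to 87.2) and Rsad2 (12.9 CPM, the others 7.23 to 7.95), replicate 1 for Nr4a1 (338 CPM, the others 279 to 283), and replicate 2 was the lowest for Nefl (9.98 CPM, the others 14.0 to 14.6).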

How the results depend on the processing

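The count of 1146 KO calls (505 higher, 641 lower) became 1866 with DESeq2 (1112 higher), 310 with the rRNA class as a term (108 and 202), 324 without single-sex libraries (182 and 142), 358 at a false discovery rate of 0.01 (172 and 186), 0 in the low-rRNA libraries alone (0 and 0; 825 at an unadjusted p under 0.05) and 1991 without KO ZT6 replicates 6 and 7 (950 and 1041). Only the groups of the contrast gave 310 higher, and limma 1014 lower. Library size alone gave 404 higher and 842 lower. Leaving out each library gave 420 to 1565 calls (173 to 742 higher, 247 to 823 lower). WT calls (1049) were 317 without single-sex libraries and 585 to 1002 leaving out each library. Genotype-by-time calls (0) became 46 with no filter on low counts, 38 with DESeq2, 21 in only the groups of the contrast, and 0 to 9 leaving out each library. The replicate block gave 2706 KO calls (1217 and 1489) and 1 genotype-by-time call. The labels do not say whether replicate numbers pair the samples. Deviations of same-numbered KO ZT6 and KO ZT18 libraries from their group means correlated at 0.157, 0.0789, -0.182 and -0.120, which cannot settle it. The causes were not tested. In only the groups of the contrast the adjusted p-values were 0.0775 for Ciart, 0.0889 for Per1, 0.147 for Nr1d1, 0.0990 for Per2, 0.0923 for Npas2 and 0.100 for Rorb; with limma those of Ciart, Nr1d1 and Per2 were 0.0892, 0.121 and 0.0710.

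Log2 fold changes that changed sign in the low-rRNA libraries alone were Per1 -0.20, Per2 -0.025, Per3 -0.046, Cry1 -0.21, Nr1d1 -0.21, Rora -0.16, Ciart -0.84, Bhlhe41 -0.39, Ccl4 -0.12, Ccrl2 -0.50, Hsph1 -0.032, Hspb1 -0.72, Hspa1a -3.33, Osgin1 -0.091, Errfi1 -0.24 and C1qa 0.013. With the rRNA class as a term Per3 was -0.12, Rora -0.18 and Tef -0.0047. The other sign changes were in genes that were not called: Rora with library size alone -0.016, limma -0.0092 and no single-sex libraries -0.079; Tef with library size alone -0.028; Hlf with RLE 0.027, DESeq2 0.026, only the groups of the contrast 0.0032, the replicate block 0.047 and without replicates 6 and 7 0.023; Gpr132 without replicates 6 and 7 0.084; Nr4a1 with the replicate block 0.061, no single-sex libraries 0.076 and without replicates 6 and 7 0.12; Cspg4 with library size alone -0.0027, the replicate block -0.068, no single-sex libraries -0.012 and without replicates 6 and 7 -0.072. Leaving out each library, Per3 from -0.017 to 0.15, Rora from -0.082 to 0.084, Tef from -0.044 to 0.041, Hlf from -0.048 to 0.042 and Cspg4 from -0.047 to 0.17 changed sign.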
